A study of Homo sapiens with 4 samples.

Results

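The ZBTB genes are the human genes named for a BTB domain followed by C2H2 zinc fingers. They were taken as every row of the deposited YTHDC1 RIP-seq transcript table whose gene symbol is ZBTB with a number and at most 1 letter, and all of their transcripts were kept. The rule found 129 transcripts of 40 genes, out of 75165 transcripts of 20298 genes in the table. RefSeq names 41 protein-coding genes in this way, and 1 of them, ZBTB16, had no listed transcript. How many other RefSeq genes had a listed transcript was not counted. The rule used symbols alone and no measured value.

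In RIP-seq an antibody pulls down a protein, and the RNA bound to it is sequenced beside RNA of the lysate. The cells were MDA-MB-231, an established human triple negative breast cancer line. All 4 libraries came from cells that carried a lentiviral vector for 3x flag-YTHDC1 (multiplicity of infection 4) and had been kept in puromycin at 2 μg/ml for 4 days, so the input cells overexpressed YTHDC1 too. The cells received 3 UV exposures of 120000 μJ/cm2 and their nuclei were isolated, and 2 libraries were made from Flag-YTHDC1 IPs with 5 μg of anti-flag antibody on nuclear lysate holding 500 μg of protein, and 2 from input lysate holding 50 μg. The labels name no libraries from normal mouse IgG among the 4. The study describes its replicates as biological, and the labels do not say whether they came from separate cultures.

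The measured value used here was the mean normalized count, which the authors computed for each transcript over the IP and input libraries together. It is 1 value for each transcript, without a value for any library. Therefore it has no SD and no n, IP was not compared with input, no test was run, and library depth is unknown. The values describe which ZBTB transcripts were read in the experiment as a whole and how the reads of each gene were divided among them. They are not per length, and a long RNA gives more reads than a short one at the same number of molecules, so they were not used to rank the genes by level. RSEM divides reads that fit several transcripts by a statistical estimate, so the part that is a transcript's own is not known.

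ZBTB proteins are mostly sequence-specific DNA-binding factors. The BTB domain at the amino end lets the proteins pair with one another and recruit corepressors or the ubiquitin ligase scaffold CUL3, and the zinc fingers at the other end read the DNA sequence. Members are best known as switches of cell fate, above all in blood cells, and several bind methylated DNA or telomeres. YTHDC1 is the nuclear reader of N6-methyladenosine in RNA, and its known roles include splicing and export of mRNA.

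The mean normalized counts of the table summed to 33361205, with a median of 44.2 for a transcript and a lowest value of 2.72. The transduced gene YTHDC1 held 0.166% of this sum, at 55488 normalized counts over 6 listed transcripts. The labelled line was checked against its markers. The mesenchymal markers VIM, CD44, AXL and FN1 were all listed, at 14306 to 80785 normalized counts. Of the epithelial markers, ESRP1 was not listed, CDH1 stood at 10.04 and EPCAM at 78.3, whereas KRT18 reached 27123. Of the receptors, ESR1 and PGR were not listed and ERBB2 stood at 4303. Of the blood cell markers, CD3E was not listed and PTPRC stood at 3.81.

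Together the ZBTB genes held 53920.1 normalized counts, or 0.162% of the table. The median ZBTB transcript had 149 normalized counts, with quartiles of 32.9 and 416. The median was 44.2 for all transcripts and 52.4 for the 2016 transcripts of the 476 genes named ZNF and a number. Among protein-coding transcripts alone the medians were 184, 91.0 and 79.5 in the same order. Of the 129 transcripts, 90 lay above the median of the table, 67 had at least 100 normalized counts and 8 had fewer than 10. Over the whole table, 64.7% of the transcripts lay below 95.8 normalized counts and 17.2% below 9.97. By gene, the sums ran from 6.10 for ZBTB8B to 7359.7 for ZBTB7A, with a median of 868. The median gene sum was 227 over all genes, 588 over the genes typed as protein-coding and 470 over the ZNF genes. There were 17 genes with at least 1000 normalized counts and 2 with fewer than 100. The 5 genes with most counts, ZBTB7A, ZBTB38, ZBTB4, ZBTB40 and ZBTB18, held 46.4% of the family's counts and the first 20 genes held 85.0%. These shares, and the counts of genes at 1000 and 100 normalized counts, were not computed for other gene sets.

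**Figure D1:**
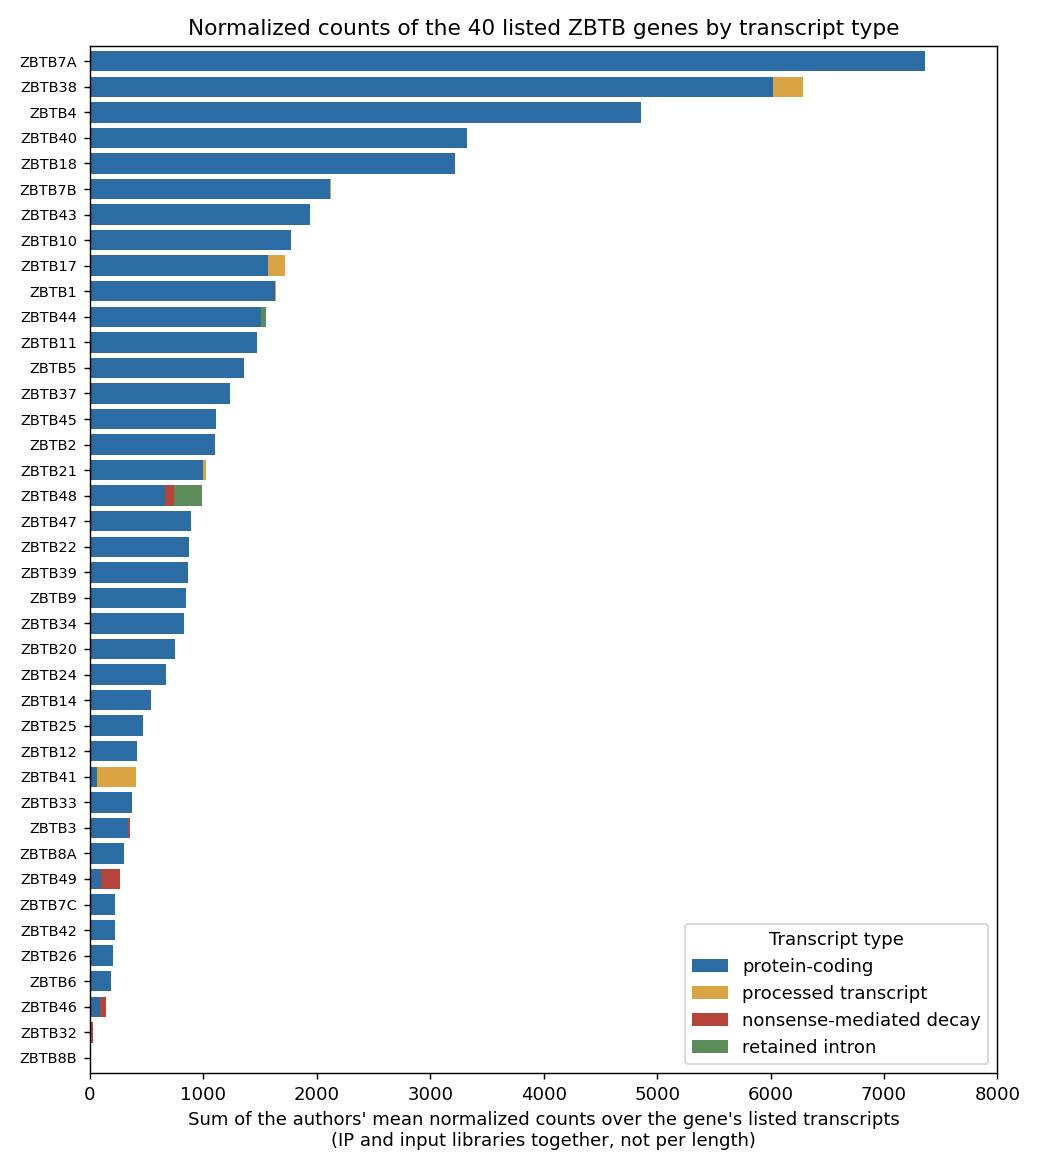
Sum of the authors' mean normalized counts over the listed transcripts of each of the 40 ZBTB genes (bars, linear axis from 0), coloured by the annotated type of the transcripts and pooled over IP and input libraries, with no error bar because the table holds 1 value per transcript. ZBTB7A, ZBTB38 and ZBTB4 have the longest bars, and ZBTB41, ZBTB49 and ZBTB32 are the genes in which a type other than protein-coding leads. In ZBTB46 the leading transcript is annotated for nonsense-mediated decay, but 63.7% of the bar is protein-coding.

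All 3 members of the list of methylated DNA binders were listed. ZBTB33, known as Kaiso, is the founding protein of this group, and ZBTB4 and ZBTB38 are its close relatives. ZBTB38 (ENSG00000177311.11, chromosome 3, 141324186 to 141449792) had the most listed transcripts of the family, 13. ZBTB38-222 held 3489 normalized counts or 55.5% of the gene, ZBTB38-201 held 1926 or 30.6%, and ZBTB38-202 held 365 or 5.81%. The other 10 transcripts each held between 0.104% and 2.58%, so most counts of this gene were assigned to 3 protein-coding transcripts. ZBTB4 (chromosome 17, 7459378 to 7484249) had only ZBTB4-202 at 3963, which was the highest value of any ZBTB transcript, and ZBTB4-201 at 896. ZBTB33 (chromosome X, 120250812 to 120258398) was read much less, with ZBTB33-201 at 284 and ZBTB33-202 at 87.9. The leading transcript took 81.6% of ZBTB4 and 76.4% of ZBTB33.

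Of the 7 regulators of blood and lymphoid lineages, 6 were listed. ZBTB7A, also known as LRF, which silences fetal globin in red cells, had the largest sum of the family on chromosome 19 (4043303 to 4066899). Its counts were divided almost evenly between ZBTB7A-202 at 3820 and ZBTB7A-201 at 3539.6, that is 51.9% and 48.1%. ZBTB7B, also known as ThPOK, which commits T cells to the helper lineage, held 2126 normalized counts over 5 transcripts. They were spread more widely than in most members, with ZBTB7B-202 at 43.1%, ZBTB7B-201 at 25.0%, ZBTB7B-207 at 20.7% and ZBTB7B-203 at 10.6%, all protein-coding. ZBTB17, or MIZ-1, the partner through which MYC represses genes, had 11 listed transcripts and 1721 normalized counts. ZBTB17-202 held 77.6% and ZBTB17-203 held 10.4%, and the 8 transcripts annotated as processed transcripts, a type without an open reading frame, lay between 5.76 and 53.2 normalized counts each. ZBTB1, which is needed for lymphocyte development, held 1638 normalized counts, of which ZBTB1-203 had 78.5% and ZBTB1-201 had 18.4%.

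The other 2 listed blood regulators had few counts. ZBTB46, a marker of classical dendritic cells, had 138 normalized counts over 4 transcripts, and its leading transcript, ZBTB46-206, is annotated for nonsense-mediated decay (NMD), with 50.0 normalized counts or 36.3%. Its coding transcripts ZBTB46-201, ZBTB46-203 and ZBTB46-202 followed at 36.3, 30.5 and 20.9. ZBTB32, which restrains activated lymphocytes, was listed with 1 transcript alone, ZBTB32-206 at 26.7 normalized counts, and this too is annotated for NMD. No protein-coding ZBTB32 transcript was listed. ZBTB16, or PLZF, the factor of innate-like T cells, was the member without a listed transcript. The authors had dropped transcripts that did not reach 5 reads in 50% of the samples, so this says only that none of its transcripts passed that filter.

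All 3 telomere binders were listed. ZBTB40 (chromosome 1, 22428909 to 22531154) held 3321 normalized counts over 5 protein-coding transcripts, with ZBTB40-202 at 2485 or 74.8% and ZBTB40-201 at 372. ZBTB10 held 1773 over ZBTB10-203 at 1145 and ZBTB10-205 at 628. ZBTB48, also known as TZAP, which binds long telomeres and sets their trimming, differed from both in the type of its transcripts. Of its 985 normalized counts, 66.7% were in protein-coding transcripts. ZBTB48-202 led with 515 or 52.3%, and second was a retained-intron transcript, ZBTB48-205, at 179 or 18.1%. Furthermore, the retained-intron transcripts ZBTB48-206 and ZBTB48-208 stood at 55.8 and 12.9, and ZBTB48-204, annotated for NMD, at 80.8. ZBTB48 and ZBTB44 were the only ZBTB genes with listed retained-intron transcripts.

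All 4 members of the list of genes for inherited disorders of development were listed, and every one of their 9 transcripts was protein-coding. ZBTB18, or RP58, whose loss causes intellectual disability, held 3215 normalized counts, with ZBTB18-202 at 2477 and ZBTB18-201 at 738. ZBTB11 had ZBTB11-201 at 1216 and ZBTB11-202 at 255. ZBTB20, the gene of Primrose syndrome, held 748 normalized counts over 4 transcripts, with ZBTB20-212 at 54.5% and ZBTB20-201 at 24.6%. ZBTB24, mutated in a form of the ICF immunodeficiency syndrome, had 1 listed transcript, ZBTB24-201, at 672 normalized counts.

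The remaining 24 members belong to none of these lists. Of the genes with most listed transcripts, ZBTB44 had 8 and ZBTB21 had 7. In ZBTB44 the counts were split between ZBTB44-202 at 573 and ZBTB44-206 at 519, or 36.9% and 33.5%, followed by ZBTB44-207 at 183, and its retained-intron transcripts ZBTB44-208 and ZBTB44-204 stood at 28.7 and 13.1. ZBTB21 was the opposite case, since ZBTB21-205 held 889.7 normalized counts or 86.7% and each of the other 6 transcripts held between 1.51% and 3.30%. Among members with at least 3 listed transcripts, the leading transcript had the largest share in ZBTB3 (92.2%), ZBTB21 (86.7%) and ZBTB45 (82.8%) and the smallest in ZBTB46 (36.3%), ZBTB44 (36.9%) and ZBTB7B (43.1%). The leading transcript had less than 1.5 times the value of the second in 4 genes, ZBTB7A, ZBTB44, ZBTB34 and ZBTB46. For ZBTB34 these were ZBTB34-202 at 442 and ZBTB34-201 at 384.

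Besides ZBTB46 and ZBTB32, a transcript that was not protein-coding led in ZBTB41 and ZBTB49. In ZBTB41, the processed transcript ZBTB41-202 held 346 normalized counts or 85.7%, and the coding ZBTB41-201 held 57.6. In ZBTB49, ZBTB49-203, annotated for NMD, held 166 normalized counts or 63.1%, against 86.5 for ZBTB49-201 and 10.8 for ZBTB49-204, both protein-coding. These 4 genes made 10.0% of the members, beside 9.45% of the ZNF genes and 12.9% of the 14050 genes typed as protein-coding.

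There were 8 members with 1 listed transcript, for which no division among listed transcripts enters the value. Besides ZBTB24 and ZBTB32 these were ZBTB5 at 1356 normalized counts, ZBTB2 at 1099, ZBTB39 at 860.5, ZBTB12 at 416, ZBTB6 at 186 and ZBTB8B at 6.10. The members outside the lists with 2 to 4 listed transcripts lay between 205 normalized counts for ZBTB26 and 1941 for ZBTB43. In ZBTB43, ZBTB43-202 held 1304, and in ZBTB37, with 1237 in all, ZBTB37-204 held 894. GENCODE numbers the transcripts of a gene from 201, so the highest number listed shows how far the annotation runs at least. The numbers reached 221 in ZBTB7C with 2 listed transcripts, 215 in ZBTB20 with 4 and 208 in ZBTB22 with 2, whereas in ZBTB38 they reached 223 with 13 listed.

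**Figure D2:**
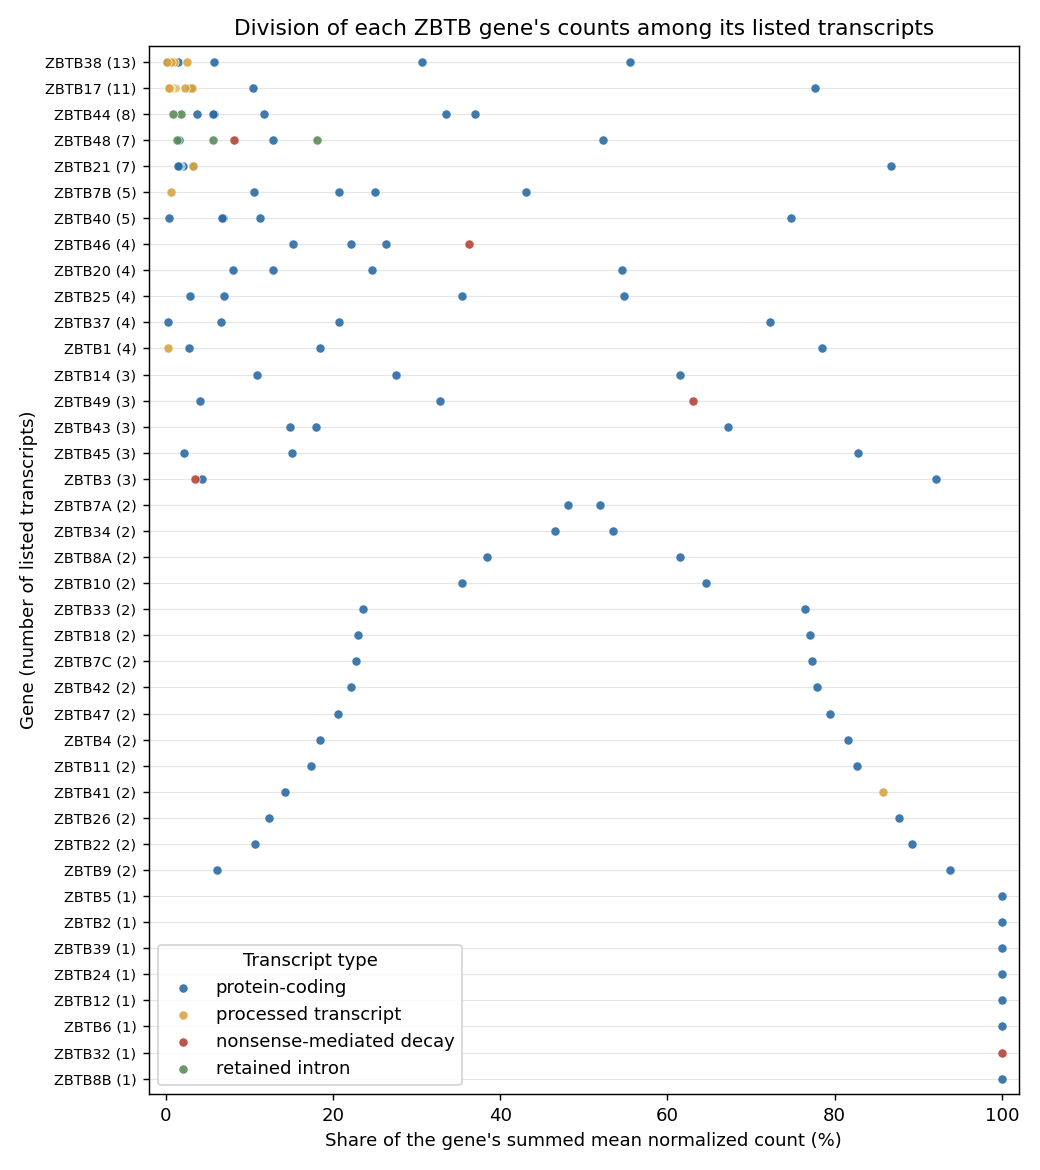
Share of each listed transcript in the summed mean normalized count of its gene (points, %, coloured by annotated type) for the 40 ZBTB genes, ordered by the number of listed transcripts in parentheses. The pair of ZBTB7A transcripts lies close together at 51.9% and 48.1%, and in ZBTB21 1 point at 86.7% stands apart from 6 points below 4%.

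The ZBTB genes were set beside the ZNF genes, the much larger class of zinc finger genes, and beside all genes typed as protein-coding. The ZNF genes were taken by symbol alone and were not limited to genes typed as protein-coding, so the sets differ in this. A protein-coding transcript was listed for 97.5% of the ZBTB genes, 95.8% of the ZNF genes and 96.9% of all protein-coding genes. This is a description of 1 value per transcript and not a test, and genes are not replicates. By transcript number, 103 of the 129 ZBTB transcripts (79.8%) were protein-coding, against 69.1% of the ZNF transcripts and 59.6% of all transcripts of protein-coding genes. By counts, 97.3% of the ZBTB sum was in protein-coding transcripts, against 88.6% in the ZNF genes and 87.6% in all protein-coding genes. Genes with many counts weigh most in these shares. As a mean over genes the ZBTB share was 91.4%, and that mean was not computed for the other sets. The other 26 ZBTB transcripts were 16 processed transcripts, 5 annotated for NMD and 5 with a retained intron, and they lay in 12 genes. In the remaining 28 of the 40 genes (70.0%) every listed transcript was protein-coding, against 39.3% of the ZNF genes and 33.8% of all protein-coding genes. Retained-intron transcripts were listed for 2 ZBTB genes (5.00%), 138 ZNF genes (29.0%) and 5363 protein-coding genes (38.2%). Transcripts annotated for NMD were listed for 12.5%, 23.3% and 30.1% of these genes in the same order.

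The ZBTB genes had fewer listed transcripts, with a median of 2 for a gene against 4 in both other sets, and this number moved with the shares. Among genes with 2 listed transcripts, all were protein-coding in 14 of 15 ZBTB genes (93.3%), 75.8% of 66 ZNF genes and 58.0% of 2013 protein-coding genes. Among genes with 3, these values were 60.0% of 5, 56.3% of 80 and 35.1% of 1902, and among genes with 4 they were 60.0% of 5, 23.5% of 85 and 19.7% of 1640. Among genes with at least 5, they were 14.3% of 7, 12.3% of 187 and 5.62% of 5927. Retained-intron transcripts were listed for 2 of the 7 ZBTB genes with at least 5 transcripts (28.6%). In that class they were listed for 47.6% of the ZNF genes and 66.9% of the protein-coding genes. None of the 25 ZBTB genes with 2 to 4 listed transcripts had one. For the ZNF genes and the protein-coding genes these shares were 6.06% and 13.8% with 2, 16.25% and 23.7% with 3, and 35.3% and 37.0% with 4. For both measures the order of the 3 sets was the same in each class with at least 2 listed transcripts, on few ZBTB genes. Among genes with 1 listed transcript it was protein-coding in 87.5% of 8 ZBTB genes, 84.5% of 58 ZNF genes and 88.1% of 2568 protein-coding genes.

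Among genes with at least 2 listed transcripts, the leading transcript held a median of 75.6% of its gene in 32 ZBTB genes (quartiles 55.3% and 81.8%), 59.3% in 418 ZNF genes and 59.7% in 11482 protein-coding genes. It held less than 50% in 3 ZBTB genes (9.38%), against 32.5% of the ZNF genes and 32.7% of the protein-coding genes. At the other end, it held more than 90% in 2 ZBTB genes (6.25%), against 7.42% and 10.8%. Within classes of listed transcripts the sets lay close together. With 2 listed transcripts the medians were 77.9%, 79.1% and 79.2% in the same order, with 3 they were 67.2%, 65.9% and 67.3%, with 4 they were 54.8%, 57.9% and 60.6%, and with at least 5 they were 55.5%, 47.6% and 50.0%. Thus among genes with 2 or 4 listed transcripts the ZBTB median was the lowest of the 3, with 3 it lay between the others, and with at least 5 it was the highest. Limiting the other sets to genes with sums within the wide ZBTB range kept 469 of 476 ZNF genes and 13031 of 14050 protein-coding genes. All 418 ZNF genes with at least 2 listed transcripts stayed, so their median could not move from 59.3%. That of the protein-coding genes was 59.4%. This limit did not match the sets by level, and the median gene sums without it were 868, 470 and 588 in the same order.

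**Figure D3:**
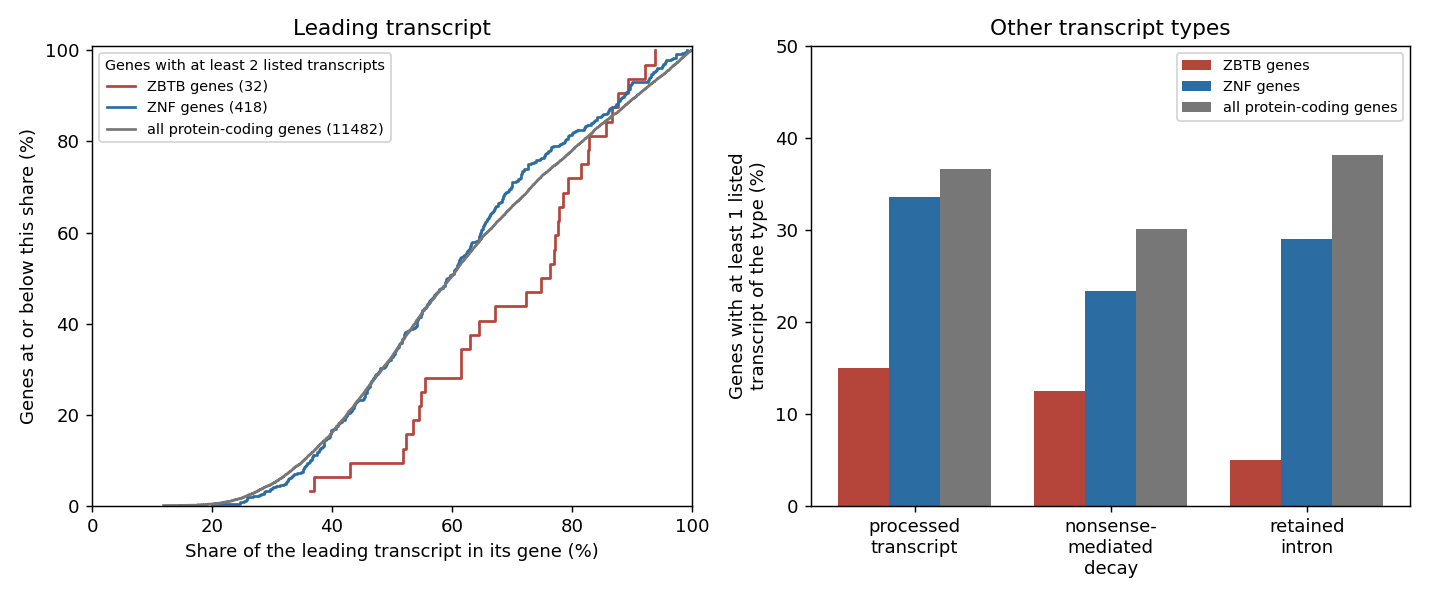
Left, cumulative share of genes (%) by the share of the leading transcript in its gene (%), for genes with at least 2 listed transcripts, and right, share of genes (%) with at least 1 listed transcript of 3 types, for ZBTB genes, ZNF genes and all protein-coding genes. The ZBTB curve lies to the right of the others over most of its range, with medians of 75.6%, 59.3% and 59.7%, and the ZBTB bar for retained introns is at 5.00% beside 29.0% and 38.2%.

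BTB zinc finger genes with other names were set beside them. Of 8 such genes 7 were listed, with 37 transcripts and sums from 422 to 2621 normalized counts, and BCL6B was not. They had a median of 4 listed transcripts, against 2 in the ZBTB genes, and the median share of their leading transcript was 47.9%. All listed transcripts were protein-coding in 2 of the 7 (28.6%), HIC1 and HIC2, against 70.0% of the ZBTB genes, and retained-intron transcripts were listed for 2 (28.6%), PATZ1 and ZNF131, against 5.00%. At 3 or 4 listed transcripts all were protein-coding in 2 of 4 of these genes and 6 of 10 ZBTB genes, with median leading shares of 60.8% and 65.1%, and no gene of either set had a retained-intron transcript. At 5 or more listed transcripts all were protein-coding in 0 of 3 and 1 of 7, retained introns were listed in 2 of 3 and 2 of 7, and the median leading shares were 32.7% and 55.5%. BCL6, the master regulator of germinal center B cells, held 968 normalized counts with BCL6-206 at 47.9%. PATZ1 held 851 with PATZ1-201 at 30.5%, and in MYNN, with 463, a transcript annotated for NMD, MYNN-204, led with 38.8%. ZNF131 had the most listed transcripts of them, 12, and 2621 normalized counts. Of the partners of BTB proteins, MAX, the dimer partner of MYC, stood at 761 normalized counts, the corepressor NCOR1 at 9992, CUL3 at 1497 and CTNND1, the p120 catenin that binds Kaiso, at 5117.

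The positions of the genes bear on what their counts can mean. The 40 members lie on 15 chromosomes, 9 of them on chromosome 1. In RefSeq coordinates (GRCh38.p14), 9 members overlap another gene with listed transcripts, in 7 of them a gene on the opposite strand. The libraries were made with a stranded kit, and whether the counting used the strand is not given in the sources used here. Reads from overlapping exons on opposite strands can be told apart only where it did. ZBTB25 and ZBTB1 are a pair of members on opposite strands of chromosome 14 that overlap at their starts over 1498 bases (64503716 to 64505213). ZBTB25 held 471 normalized counts over 4 protein-coding transcripts, with ZBTB25-201 at 54.8% and ZBTB25-204 at 35.4%, and its span also overlaps MTHFD1, at 5809. ZBTB12 lies wholly within the span of C2, a complement gene on the opposite strand with 247 normalized counts. ZBTB11 overlaps the start of the lncRNA gene ZBTB11-AS1, at 597 normalized counts, over 703 bases (chromosome 3, 101676430 to 101677132). ZBTB37 overlaps the lncRNA gene GAS5, at 1096, over 964 bases, ZBTB5 overlaps GRHPR, at 2031, over 1393 bases, and ZBTB46 overlaps SLC2A4RG, at 3408, over 381 bases. ZBTB24 overlaps MICAL1, at 996, on the same strand over 3375 bases. Whether these spans share exons in the annotation the authors used was not tested.

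The 250 bases upstream of the promoter starts of ZBTB25, ZBTB1, ZBTB11, ZBTB12 and ZBTB37 are shown because they lie wholly within the span of another listed gene on the opposite strand. The promoter starts are not always the ends of the gene spans used above. The window of ZBTB37 lies wholly within its own span, which starts at 173868082. That of ZBTB1 lies partly within its own span, which starts at 64503716. These are the 5 such windows among the 35 members with a window, and another 3, those of ZBTB4, ZBTB26 and ZBTB49, lie partly within one. The windows of ZBTB25 and ZBTB1 lie within each other's gene, that of ZBTB11 within ZBTB11-AS1, that of ZBTB12 within C2 and that of ZBTB37 within GAS5. They are RefSeq sequences of GRCh38.p14, given 5′ to 3′ on the strand of the ZBTB gene, which is the plus strand for ZBTB1 and ZBTB37 and the minus strand for the others. Capitals mark CGCG, which reads the same on both strands and is the core of the methylated sequence that Kaiso binds.
ZBTB25, chr14:64505214-64505463: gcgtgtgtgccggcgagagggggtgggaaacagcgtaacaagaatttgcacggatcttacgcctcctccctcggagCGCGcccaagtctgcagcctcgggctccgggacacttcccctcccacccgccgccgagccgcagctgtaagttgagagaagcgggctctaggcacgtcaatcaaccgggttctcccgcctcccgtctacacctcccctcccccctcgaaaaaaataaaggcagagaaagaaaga
ZBTB1, chr14:64503637-64503886: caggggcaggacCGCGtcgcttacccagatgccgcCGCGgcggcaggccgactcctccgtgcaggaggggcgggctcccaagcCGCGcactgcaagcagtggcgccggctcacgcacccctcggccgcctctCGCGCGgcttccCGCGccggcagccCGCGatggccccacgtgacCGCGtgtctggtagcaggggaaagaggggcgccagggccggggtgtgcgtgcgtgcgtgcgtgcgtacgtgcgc
ZBTB11, chr3:101677133-101677382: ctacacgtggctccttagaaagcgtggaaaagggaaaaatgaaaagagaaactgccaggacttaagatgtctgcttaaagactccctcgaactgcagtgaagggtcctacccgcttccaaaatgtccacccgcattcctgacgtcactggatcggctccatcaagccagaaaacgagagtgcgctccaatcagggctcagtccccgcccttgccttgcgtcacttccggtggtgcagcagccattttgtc
ZBTB12, chr6:31902087-31902336: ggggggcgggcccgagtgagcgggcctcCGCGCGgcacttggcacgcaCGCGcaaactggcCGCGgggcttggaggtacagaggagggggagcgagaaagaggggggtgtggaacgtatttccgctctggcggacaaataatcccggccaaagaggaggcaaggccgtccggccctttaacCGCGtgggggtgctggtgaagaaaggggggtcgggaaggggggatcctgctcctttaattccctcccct
ZBTB37, chr1:173868130-173868379: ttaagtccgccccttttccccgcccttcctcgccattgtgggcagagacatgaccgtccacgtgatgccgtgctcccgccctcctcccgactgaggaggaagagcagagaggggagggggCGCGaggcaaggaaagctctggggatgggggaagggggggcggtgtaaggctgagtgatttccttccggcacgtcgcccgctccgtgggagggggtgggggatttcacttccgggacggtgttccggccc
The GC content of these windows was 61.6% in ZBTB25, 76.0% in ZBTB1, 53.2% in ZBTB11, 66.4% in ZBTB12 and 66.4% in ZBTB37. Counting overlapping matches, CGCG was found 1 time in ZBTB25, 8 times in ZBTB1, 5 times in ZBTB12, 1 time in ZBTB37 and 0 times in ZBTB11. Windows from 250 bases before to 50 after the promoter start were found for 35 of the 40 members, all but ZBTB6, ZBTB10, ZBTB17, ZBTB40 and ZBTB41. The median GC content was 64.7% in the 35 windows, 61.3% in those of 396 ZNF genes and 65.0% in those of 10980 listed protein-coding genes. CGCG was present in 25 of the 35 (71.4%), in 77.3% of the ZNF windows, in 77.8% of the protein-coding windows and in 49.9% of all 35116 windows. TATAAA, searched on both strands and not overlapping CGCG, was found in 0 of the 35, in 2.78% of the ZNF windows, 6.07% of the protein-coding windows and 11.5% of all windows. A match or its absence describes the letters of these windows only.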

How the data were processed

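RNA of 2 Flag-YTHDC1 IP and 2 input libraries was measured by RIP-seq. Per the submitters' processing notes, STAR 2.7.2b and RSEM 1.2.31 gave the reads of each transcript, on GENCODE v33 and GRCh38. The authors dropped transcripts that did not reach 5 reads in 50% of the samples, applied RUVSeq for batch effects and ran DESeq2. The signal value used here is the authors' deposited mean normalized count over all 4 libraries together. The table's other numeric columns hold the authors' comparison of IP with input, that is fold changes on the log2 scale with standard errors and p-values before and after adjustment, and were not used. Hence no test was run, precision is unknown, and the planned levels per length, protein features and count test were not made.

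For each gene identifier the values of its transcripts were added up, and each transcript's share was taken. All 40 identifiers were found in a separate gene name table. Positions and promoter windows are from RefSeq, matched by symbol. The named genes were those in the role lists, with 1 listed transcript, among the 5 with most listed transcripts, led by a transcript that is not protein-coding, or with the 3 highest or lowest leading shares among genes with at least 3 listed transcripts. Others were named after their values were seen. Some genes of the lists and overlaps are not reported here. Members and lists were chosen with earlier results of these data known. All was computed with pandas 2.3.3 and numpy 2.4.6 under python 3.11.15 and drawn with matplotlib 3.10.9. The gene sums, coding shares and leading shares were tested on simulated data, and the other steps were not.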

Additional observations from a re-analysis of the deposited data

How the results depend on the processing

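With a mean of at least 10, 39 genes and 121 transcripts were left, and with the BTB zinc finger genes of other symbols there were 47 genes and 166 transcripts. A mean of at least 100, chosen after seeing the data, left 37 genes and 67 transcripts. The family sum was 52474.5 normalized counts over protein-coding transcripts alone, 53868 with a mean of at least 10 and 51628 with at least 100. The share of the sum in protein-coding transcripts was 97.4% and 98.3% under these minimums, and 91.4% as a mean over genes. The median share of the leading transcript stayed at 75.6% with a mean of at least 10, and was 77.1% over protein-coding transcripts alone and 68.9% with a mean of at least 100. Genes led by a transcript that is not protein-coding numbered 4 with a mean of at least 10 and 2 with at least 100, by the construction of this minimum. The order of gene levels per length was not run. No paired analysis was possible because the table gives 1 value per transcript over all libraries, and for the same reason no replicate was left out.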

Other observations

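Loci with ZBTB in their names that the rule did not take were listed as well. ZBTB8OS, which lies near ZBTB8A and codes for no zinc finger protein, held 163 normalized counts over 6 transcripts, against 304 for ZBTB8A. The processed pseudogenes ZBTB45P2 and ZBTB45P1 stood at 44.0 and 10.99 and ZBTB12BP at 4.32, beside 1108 for ZBTB45 and 416 for ZBTB12. The intronic lncRNA ZBTB40-IT1 stood at 5.11. Reads of a gene and of its pseudogenes can be exchanged in the estimate, and this was not tested. The closest members without an overlap were ZBTB6 and ZBTB26 on chromosome 9, with 2242 bases between their RefSeq spans, at 186 and 205 normalized counts.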
